A study of Mus musculus with 121 samples.

Results

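Neuronal immediate-early genes switch on within minutes of synaptic input and need no new protein for it. Calcium and ERK signals reach them through CREB, SRF and MEF2 bound near their start, and most of their mRNAs decay fast. Their products are transcription factors that start a later wave of genes, enzymes and adaptors that shut the signal down again, and proteins that act at the synapse. In cortex and striatum their level is read as a trace of recent neuronal activity, and it also moves with handling, arousal and time of day.

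34 such genes were followed in mouse brain, and 34 of 34 were found among the 24412 genes of the deposited count table. They were chosen by symbol from what is known of the family, with earlier results of these data also known. By role they are 7 genes of the AP-1 family (*Fos*, *Fosb*, *Fosl2*, *Jun*, *Junb*, *Atf3*, *Maff*), 7 EGR and zinc finger factors (*Egr1*, *Egr2*, *Egr3*, *Egr4*, *Klf2*, *Klf4*, *Klf10*), 4 other transcription factors (*Npas4*, *Nr4a1*, *Nr4a3*, *Csrnp1*), 11 genes of signal feedback (*Dusp1*, *Dusp5*, *Dusp6*, *Sik1*, *Trib1*, *Btg2*, *Ier2*, *Ier5*, *Tiparp*, *Gadd45b*, *Gadd45g*) and 5 genes with synaptic or secreted products (*Arc*, *Homer1*, *Nptx2*, *Ptgs2*, *Cyr61*). Several are not confined to neurons: *Klf2* and *Klf4* are also endothelial and *Cyr61* also vascular.

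The study raised endogenous *Gdnf*, the gene of a growth factor for dopamine neurons, with a conditional allele (cKU in the labels, cHyper in the article) and sequenced poly(A) RNA from prefrontal cortex (PFC), striatum (STR) and substantia nigra (SN) of adult male mice. Genotypes were wt/wt (WT), wt/cKU (HET) and cKU/cKU (HOM) on a mixed 129Ola/ICR/C57bl6 background, with wild-type littermates as controls. In the first model, GDNF cKU x Nestin-Cre, mice were untreated and 2 months old by the labels, while the article gives 2 to 3 months for their striatum and nigra. In the second, GDNF cKU +AAV-Cre, they were 5 to 7 months old and had AAV-Cre injected into the striatum on both sides at 3 to 5 months.

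WT mice of each model carried the same Cre driver or injection as their littermates. Nestin-Cre acts across the central nervous system from mid-gestation, whereas AAV-Cre acts around the injected striatum, so the cortex and midbrain of that model were not the injected tissue. Cre source, age and injection differ between the models and cannot be told apart there, and the labels do not give the sequencing runs. Mice were killed after deep CO2 anaesthesia and regions were dissected from slices. Hour of death, order of dissection and handling before death are not in the labels, so their part could not be tested.

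The 121 libraries held 9869584 to 26750905 counts and came from 21 Nestin-Cre and 22 AAV-Cre mice. Levels are given in cpm, counts scaled to a common library total, and for groups over 5 libraries as the lowest, median and highest value. Group sizes for WT, HET and HOM were 8, 6 and 4 in PFC, 6, 7 and 6 in STR and 6, 7 and 6 in SN of the Nestin-Cre model. In the AAV-Cre model they were 7, 7 and 8 in PFC, 7, 7 and 7 in STR and 7, 7 and 8 in SN.

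Region labels fitted their markers: 10 striatal genes summed to a mean of 9492 cpm in Nestin-Cre WT striatum against 633 in WT cortex, with *Ppp1r1b* the most abundant of them in cortex. Cortical markers, 11 genes led by *Slc17a7*, summed to 2583 cpm in Nestin-Cre WT cortex and 2291 in AAV-Cre WT cortex. Midbrain dopamine markers, 9 genes led by *Slc6a3*, summed to 4328.6 and 4284 cpm in the WT nigra of the respective models. 1 Nestin-Cre mouse carries the label WT in its cortex and HOM in its striatum and nigra. Its libraries kept their labels in the tests of genotype, region and model. The test of a genotype effect between regions thus holds this mouse as WT in cortex and HOM in striatum. In the correlations between regions it was used, as HOM, in the pair of striatum and nigra and was left out of pairs with cortex.

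7 libraries, from 5 mice, stood apart in their group by markers of another tissue. The tests of members between genotypes, regions and models and the correlations between regions were also run without them, whereas the spread between mice, the correlations among members and the relations to markers use all libraries. In Nestin-Cre mice these were the cortex of 1 WT mouse (981 cpm of striatal markers, the next library of the group 704), the nigra of 1 HET mouse (1659 cpm, next 315), the striatum of that HET mouse (19036 cpm of 8 choroid plexus genes, next 185) and the striatum of 1 HOM mouse (778 cpm of cortical markers, next 373). In AAV-Cre mice these were the nigra of 1 WT mouse (993 cpm striatal and 465.7 cortical, next 431 and 289) and the cortex and nigra of 1 HET mouse (1223 and 21370 cpm of choroid plexus genes, next 26.4 and 242). *Ttr*, the transthyretin of choroid plexus, also reached high levels in AAV-Cre striatum of each genotype, where the summed choroid plexus level went up to 8324 cpm in WT, 6991 in HET and 6643 in HOM. Bulk tissue cannot tell fewer cells of a type from less RNA per cell.

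The targeted gene was low everywhere outside striatum. In AAV-Cre striatum *Gdnf* stood at 5.45, 6.74 and 7.45 cpm in WT, at 6.46, 7.37 and 9.42 in HET and at 7.71, 8.67 and 9.98 in HOM, so that 7 of 7 HOM libraries lay above the highest WT. Nestin-Cre striatum held 3.88, 5.98 and 7.21 cpm in WT, 4.04, 5.67 and 9.05 in HET and 5.79, 6.65 and 9.59 in HOM, with overlap and 6 of 6 HOM libraries above the WT mean. In Nestin-Cre cortex WT held 0.198, 0.392 and 0.884 cpm, HET 0.126, 0.355 and 0.898, and the 4 HOM libraries 0.0893, 0.126, 0.139 and 0.626. Since the recombined allele ends in another 3′ sequence, counts over the whole gene are not an equal measure of both alleles.

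**Figure D1:**
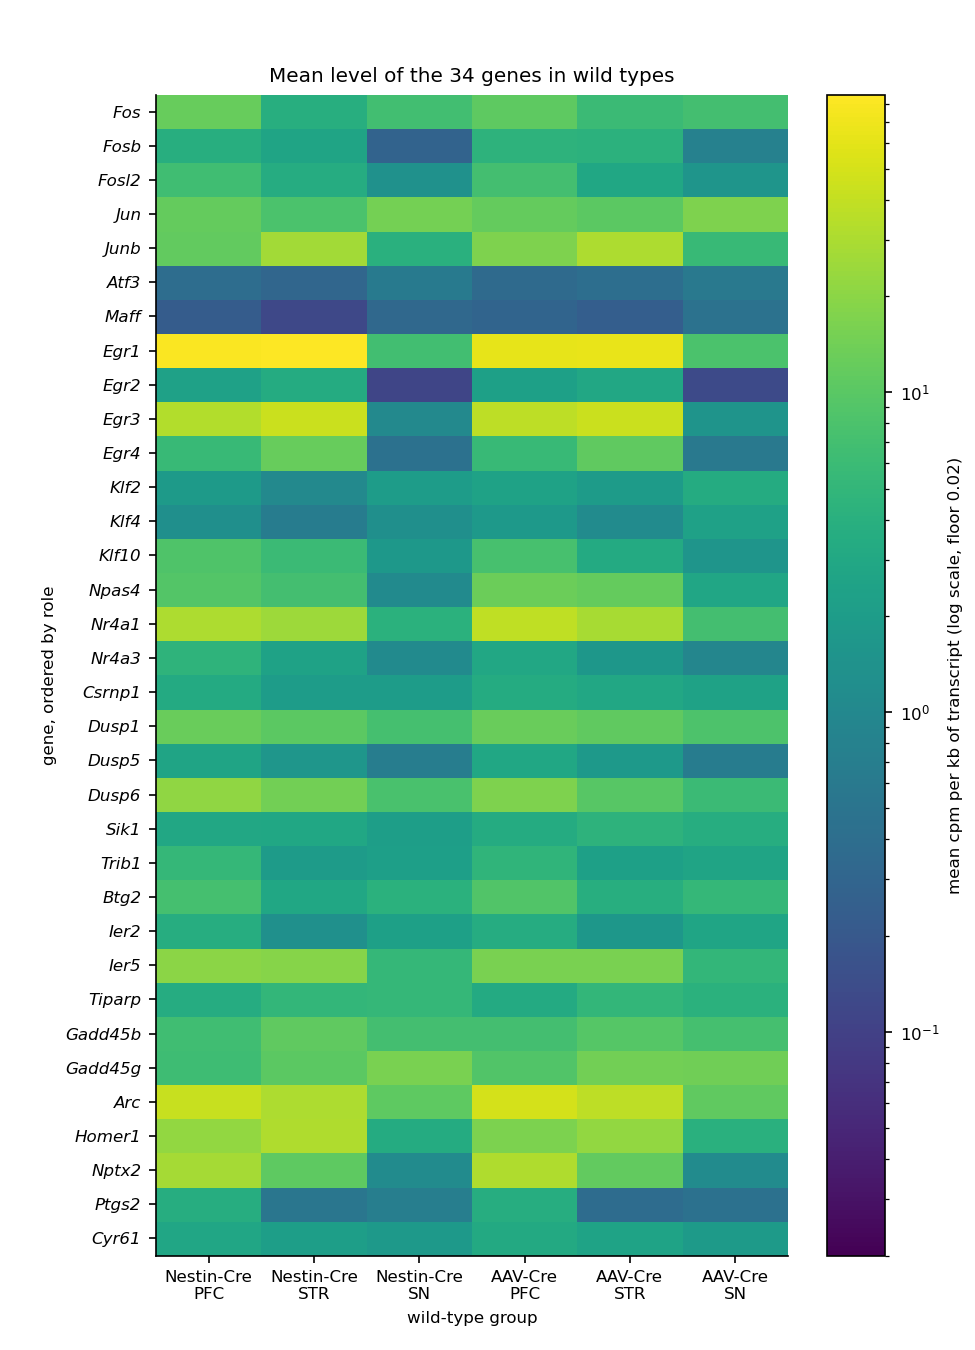
Mean level of the 34 genes in the WT group of each region and model, in cpm per kilobase of transcript on a logarithmic colour scale, ordered by role. WT libraries per group: 8, 6 and 6 for PFC, STR and SN of the Nestin-Cre model, 7 in each AAV-Cre group.

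In WT mice *Egr1*, *Egr3* and *Arc* were among the highest members in cortex and striatum. *Arc* kept a high place in nigra at a lower level, and *Egr2* was last there. Per kilobase of transcript, *Egr1*, a zinc finger factor of late-phase plasticity, led in Nestin-Cre cortex (mean 82.4 cpm per kb), followed by *Arc* (41.9), *Egr3* (32.1), *Nr4a1* (30.6) and *Nptx2* (27.8). Striatum of that model was led by *Egr1* (85.4), *Egr3* (43.3), *Homer1* (31.4), *Arc* (30.7) and *Junb* (26.7). Nigra had another order: *Gadd45g*, a stress and growth arrest gene, led with 16.1 cpm per kb, then *Jun* (15.0), *Arc* (10.7), *Dusp6* (7.68) and *Dusp1* (7.17).

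AAV-Cre mice gave the same first gene in cortex and striatum, with *Egr1* at 62.5 and 63.9 cpm per kb. *Arc* (50.1), *Nr4a1* (38.4), *Egr3* (37.7) and *Nptx2* (31.9) came next in AAV-Cre cortex, and *Egr3* (43.8), *Arc* (37.6) and *Junb* (30.2) in AAV-Cre striatum. In AAV-Cre nigra *Jun* (16.8) and *Gadd45g* (14.0) were highest, then *Arc* (11.0), *Dusp1* (8.29) and *Egr1* (7.99). At the low end stood *Maff*, a small MAF factor, with 0.229 cpm per kb in Nestin-Cre cortex and 0.124 in striatum, and *Egr2* with 0.113 and 0.1296 in the Nestin-Cre and AAV-Cre nigra. These are group means, and neighbours in the order overlap over libraries.

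Regions were compared within WT mice by the quasi-likelihood (QL) F test of edgeR, and a gene was called at an adjusted p under 0.1 (Benjamini-Hochberg over all genes tested, 2-sided). In the Nestin-Cre model, striatum against cortex called 6 of 33 members higher (34.2% of all genes tested) and 16 lower (34.0%). Nigra against striatum called 6 higher (37.8% of all genes) and 20 lower (38.3%), and nigra against cortex 2 higher (37.6%) and 26 lower (41.2%). The AAV-Cre model gave 7 of 34 higher (33.8%) and 13 lower (31.8%) for striatum against cortex. For its nigra it gave 5 higher (39.7%) and 23 lower (35.9%) against striatum, and 4 higher (37.7%) and 24 lower (36.4%) against cortex. With mouse as a replicate block the 5 became 9 (40.8% of all genes) and the 4 became 7 (38.6%). Leaving out the libraries that stood apart gave 6 (39.3% of all genes) and 22 (35.4%) in place of 5 and 23 for AAV-Cre nigra against striatum, and the same counts in the other 5 comparisons.

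Among AP-1 genes, *Fos*, the best known activity marker, was lower in Nestin-Cre striatum than cortex (log2 fold change −1.70, standard error 0.38, adjusted p 0.000583), with overlap. *Junb*, a JUN partner of *Fos*, ran the other way. Its Nestin-Cre WT levels were 10.9, 19.95 and 34.8 cpm in cortex, 35.3, 52.4 and 58.1 in striatum and 4.66, 5.69 and 14.5 in nigra. Striatum was thus above cortex in 6 of 6 libraries (1.17, error 0.24, adjusted p 0.000264), and in AAV-Cre mice by 0.80 (0.35, adjusted p 0.0546) with overlap. *Fosl2* was lower in AAV-Cre striatum than cortex without overlap (−1.32, 0.22, adjusted p 1.79e-05). *Maff* was called higher in AAV-Cre nigra than striatum (0.91, 0.30, adjusted p 0.0092) from low levels, a median of 1.12 against 0.643 cpm. *Atf3*, a stress-responsive partner, was called higher in nigra than Nestin-Cre striatum (0.75, 0.37, adjusted p 0.0727) and than AAV-Cre cortex (0.56, 0.29, adjusted p 0.0922), again with overlap. *Jun* was higher in AAV-Cre nigra than cortex (0.41, 0.11, adjusted p 0.00197), with overlap.

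EGR factors had the largest differences between striatum and nigra. *Egr3* held 90.4, 128.2 and 171.9 cpm in Nestin-Cre WT cortex, 153.1, 168.1 and 217.3 in striatum and 0.43, 1.74 and 13.7 in nigra. In AAV-Cre WT mice it held 97.3, 160 and 187.8, then 121.8, 178.5 and 211.8, then 2.21, 3.02 and 17.2 cpm. No nigra library reached the forebrain range in either model.

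Nigra against striatum gave *Egr3* log2 fold changes of −5.59 (error 0.45, adjusted p 2.85e-10) and −4.89 (0.34, 1.58e-11) in the Nestin-Cre and AAV-Cre models. *Egr2* followed with −5.21 (0.65, 2.87e-07) and −4.52 (0.59, 4.14e-07), and *Egr4* with −4.97 (0.39, 1.94e-10) and −4.26 (0.41, 3.52e-09), none of them with overlap. Against cortex the nigra gave *Egr3* −5.19 (0.43, 5.22e-10) and −4.71 (0.34, 3.17e-11), and *Egr2* −4.68 (0.64, 8.91e-07) and −4.18 (0.59, 1.58e-06). *Egr4* was higher in striatum than cortex, by 1.10 (0.27, 0.00145) in Nestin-Cre mice without overlap and by 0.96 (0.33, 0.0159) in AAV-Cre mice with overlap.

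*Klf2* and *Klf4* were among the few members higher in nigra than striatum. *Klf4* differed by 0.79 (error 0.26, adjusted p 0.00974) and 1.00 (0.19, 5.28e-05), and *Klf2* by 0.79 (0.35, 0.0512) and 0.71 (0.24, 0.0104), in the Nestin-Cre and AAV-Cre models. WT ranges of these genes overlapped between the regions.

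Feedback genes ran in both directions. *Ier2* was lower in Nestin-Cre striatum than cortex (−1.48, error 0.20, adjusted p 1.76e-06), where cortex held 2.66, 5.30 and 7.48 cpm and striatum 1.68, 1.91 and 2.68, ranges that barely touch. *Gadd45b*, linked to DNA demethylation at activity-regulated genes, was higher in striatum (0.75, 0.13, 3.38e-05), at 10.7, 13.4 and 20.1 cpm against 6.88, 7.95 and 10.2. *Gadd45g* was graded from cortex (4.86, 6.99 and 9.08 cpm) over striatum (8.57, 10.9 and 14.0) to nigra (14.2, 16.8 and 21.7) in Nestin-Cre WT mice.

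Nigra was above cortex for *Gadd45g* by 1.14 (0.13, 5.56e-08) without overlap in the Nestin-Cre model and by 0.59 (0.20, 0.0131) with overlap in the AAV-Cre model, whose striatum exceeded cortex by 0.67 (0.20, 0.00647). *Tiparp*, a PARP enzyme that curbs the dioxin receptor, was higher in Nestin-Cre nigra than cortex (0.37, 0.13, 0.0128). In AAV-Cre mice *Tiparp* was the 4th member higher in nigra than cortex (0.23, 0.12, 0.0849), named here after its value was seen.

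Of the synaptic and secreted effectors, *Nptx2* and *Ptgs2* were highest in cortex, and *Homer1* was higher in striatum than cortex by 0.46 (error 0.14, adjusted p 0.00614) and 0.36 (0.12, 0.01) in the Nestin-Cre and AAV-Cre models, named after its values were seen. *Nptx2*, a pentraxin that gathers AMPA receptors, held 51.5, 67.1 and 93.0 cpm in Nestin-Cre WT cortex, 19.6, 27.2 and 35.9 in striatum and 1.57, 2.02 and 5.16 in nigra, without overlap. It fell by 4.77 log2 units from cortex to nigra in Nestin-Cre mice (error 0.27, adjusted p 1.03e-12) and by 4.91 in AAV-Cre mice (0.21, 4.41e-15), where the striatum was also lower (−1.50, error 0.17, adjusted p 7.93e-08; 24.3, 30.1 and 34.7 cpm against 46.2, 89.2 and 93.0). *Ptgs2*, the inducible cyclooxygenase, held 12.4, 15.0 and 20.6 cpm in Nestin-Cre WT cortex and 1.25, 2.15 and 3.66 in striatum. Striatum was lower by −2.76 (0.34, 4.02e-07) in that model and −3.30 (0.22, 9.32e-12) in the AAV-Cre model, without overlap.

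**Figure D2:**
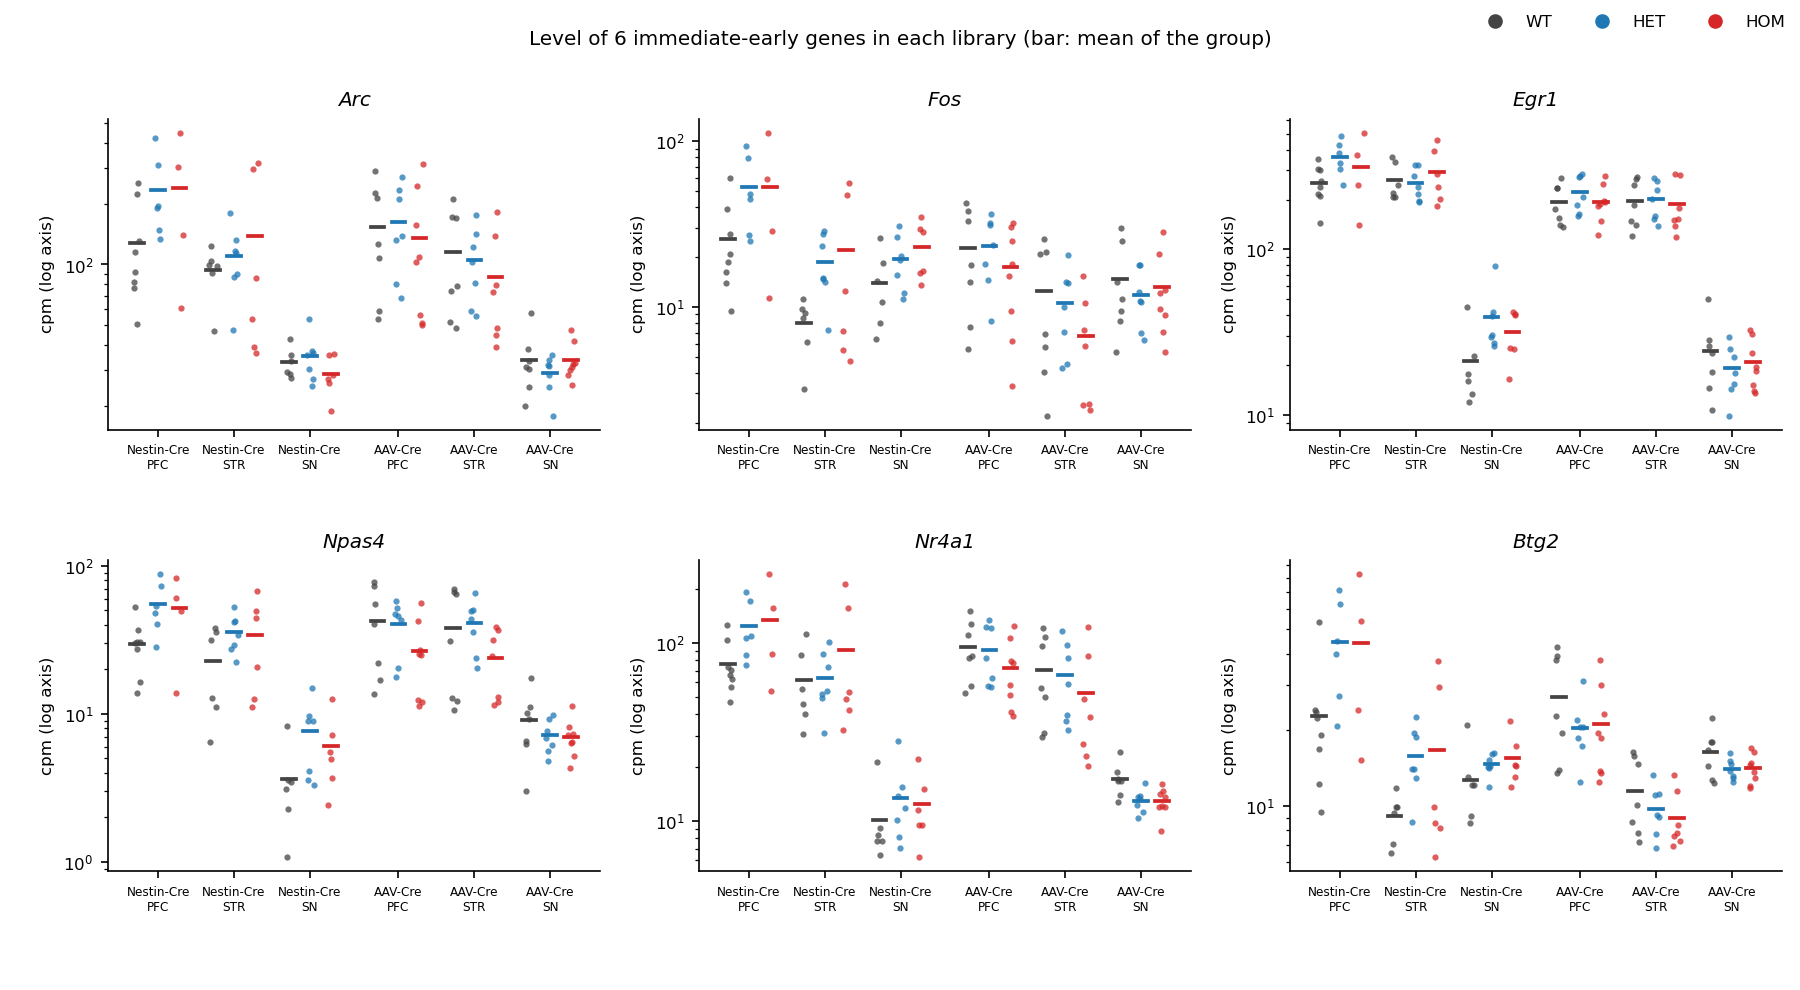
Level of 6 immediate-early genes in each library, in cpm on a logarithmic axis, by model, region and genotype. Bars mark the mean of each group.

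Genotype was tested within each region and model, HET and HOM each against the same WT libraries, so those comparisons share their controls. 6 members named by rule (*Fos*, *Arc*, *Egr1*, *Npas4*, *Nr4a1* and *Btg2*) are given in each. *Arc* encodes a capsid-like protein that drives AMPA receptor uptake, *Npas4* a neuron-specific factor of inhibitory synapses, *Nr4a1* an orphan nuclear receptor and *Btg2* an antiproliferative cofactor of mRNA decay. No member was called by the QL test in any of the 12 genotype comparisons. An edgeR likelihood ratio test (LRT) and DESeq2 were run beside it. The LRT leaves out a gene's own spread between mice. Its error for *Fos* in Nestin-Cre cortex HET was 0.0876, where the standard deviation of log2 cpm within genotype was 0.969. LRT counts of members therefore do not weigh a genotype difference against that spread.

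In Nestin-Cre cortex most members stood higher with the allele, though none passed the test. *Fos* held 9.40, 19.8 and 60.3 cpm in WT and 24.9, 46.5 and 94.2 in HET, and the 4 HOM libraries held 11.2, 28.7, 59.7 and 112.56. 5 of 6 HET and 3 of 4 HOM libraries lay above the WT mean, and the genotypes overlap. The log2 fold changes were 1.04 (error 0.43, adjusted p 0.419) for HET and 1.04 (0.48, 0.47) for HOM.

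*Arc* held 50.5, 103.8 and 253.8 cpm in WT cortex, 134.4, 193 and 425 in HET and 61.1, 140.0, 304.6 and 448.0 in HOM. 6 of 6 HET libraries exceeded the WT mean, 2 of them the highest WT, and HOM spanned from near the lowest WT to above the highest. Fold changes on the log2 scale were 0.86 (error 0.39, adjusted p 0.481) and 0.88 (0.43, 0.508).

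*Egr1* held 144.9, 248.3 and 349.2 cpm in WT, 245.9, 359.1 and 483.2 in HET and 139.6, 246, 370.4 and 504.4 in HOM, with log2 fold changes of 0.51 (0.22, adjusted p 0.457) and 0.30 (0.25, 0.78). *Npas4* held 13.9, 30.3 and 53.1 cpm in WT, 28.5, 50.7 and 87.6 in HET and 13.7, 49.6, 60.8 and 82.2 in HOM (0.88, 0.31, adjusted p 0.343, and 0.78, 0.35, 0.45). Of HET libraries, 5 of 6 lay above the WT mean for either gene, and 1 HOM library was below the lowest WT for both. Leaving out 1 HOM mouse at a time took *Egr1* from −0.021, without the highest mouse, to 0.54, without the lowest.

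*Nr4a1* held 46.7, 68.3 and 126.5 cpm in WT, 74.7, 108.6 and 194.2 in HET and 53.6, 86.3, 157.1 and 242.65 in HOM (0.70, 0.28, adjusted p 0.413, and 0.82, 0.31, 0.363). *Btg2* held 9.45, 20.6 and 53.7 cpm in WT, 20.7, 42.5 and 71.3 in HET and 15.3, 23.9, 54.2 and 82.4 in HOM (0.97, 0.37, adjusted p 0.389, and 0.95, 0.41, 0.432). The same 2 HOM mice were high for both genes, and the HOM mouse lowest for *Egr1* and *Npas4* was lowest here too. Without the highest HOM mouse the HOM values were 0.38 for *Fos*, 0.38 for *Arc*, 0.48 for *Npas4*, 0.38 for *Nr4a1* and 0.46 for *Btg2*.

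Over the members, the QL test in Nestin-Cre PFC, HET versus WT, called 0 of 33 (0% of all genes tested). Unadjusted p lay under 0.05 for 9 (9.72% of all genes), the LRT called 12 higher and 0 lower (2.88%), and DESeq2 called 0, with 7 at an unadjusted p under 0.05 (7.73% of all genes by DESeq2). 28 of 33 log2 fold changes were positive with a median of 0.27, against 7134 of 14386 for all genes. For HOM versus WT the QL test called 0 of 33 (0.25% of all genes, 36 in number), 11 had an unadjusted p under 0.05 (10.1%), the LRT called 15 higher and 1 lower (2.15%), and DESeq2 called 0, with 7 at an unadjusted p under 0.05 (7.83%). 29 of 33 were positive with a median of 0.34, against 7024 of 14386 for all genes. The members were chosen with earlier results of these data known, so these counts of positive members are a description. The article lists several members, *Fos* and *Arc* among them, as changed in this cortex. The HOM values were not uniform over mice. The mean log2 level of 31 members was 4.09, 4.64, 5.14 and 5.44 in the HOM libraries, against a mean of 4.51 in WT.

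The AP-1 genes had medians of 0.50 in HET and 0.72 in HOM there, with 6 of 6 tested genes positive. In HOM 1 mouse was highest for each of these 6 genes, with *Fosb* at 44.1 cpm against 9.64, 12.4 and 20.9 in the others. The HOM medians by role are given with that mouse, and differences between roles were not tested. Other transcription factors had medians of 0.49 and 0.57, feedback genes 0.19 and 0.34, EGR and zinc finger factors 0.18 and 0.15, and synaptic or secreted effectors 0.10 and 0.05. Lowest adjusted p among members were 0.343 for *Npas4* in HET and 0.329 for *Junb* in HOM (0.93, error 0.34), the latter named after its value was seen. *Homer1*, a scaffold of metabotropic glutamate receptors, was the 1 member the LRT called lower in HOM (QL estimate −0.29, 0.13, adjusted p 0.483), named likewise.

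Marker levels moved with genotype in this region: the 10 striatal genes, none at 0, summed to a mean of 633 cpm in WT, 420 in HET and 427 in HOM, and no HET or HOM library reached the WT mean. Oligodendrocyte markers (10 genes led by *Mbp*, none at 0) summed to 5230, 3988 and 3908 cpm, again with 6 of 6 HET and 4 of 4 HOM libraries under that mean. The part of either marker list in the result was not tested. Without the WT cortex that stood apart the members called stayed at 0 in HET and HOM, with 28 of 33 positive (median 0.23) and 29 of 33 positive (median 0.34).

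In Nestin-Cre striatum *Fos* and *Btg2* stood higher in most HET libraries, and in HOM a few libraries stood far above the rest. *Fos* held 3.17, 8.87 and 11.2 cpm in WT, 7.26, 14.9 and 28.7 in HET and 4.68, 9.77 and 55.9 in HOM, with log2 fold changes of 1.16 (error 0.53, adjusted p 0.273) and 1.46 (0.55, 0.784). *Btg2* held 6.51, 9.64 and 11.8 cpm in WT, 8.64, 14.0 and 22.5 in HET and 6.28, 9.24 and 37.4 in HOM (0.74, 0.36, adjusted p 0.298, and 0.87, 0.37, 0.784). For each of these 2 genes 6 of 7 HET libraries exceeded the highest WT, while the high HOM values were those of 2 mice, the ones that were high in cortex. The striatum of 1 of these 2 is the HOM library set apart for cortical markers, and without the libraries set apart the HOM values were 0.91 (error 0.52, adjusted p 0.557) for *Fos* and 0.43 (0.33, 0.597) for *Btg2*.

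*Npas4* held 6.45, 22.1 and 38.3 cpm in WT, 22.6, 33.9 and 52.4 in HET and 11.2, 32.5 and 67.2 in HOM (0.60, 0.43, adjusted p 0.452, and 0.58, 0.44, 0.784). *Arc* held 46.9, 99.2 and 123 cpm in WT, 47.3, 114.4 and 179.9 in HET and 36.6, 69.7 and 317.5 in HOM (0.17, 0.46, adjusted p 0.85, and 0.55, 0.47, 0.787). HET libraries above the WT mean numbered 6 of 7 for the first and 4 of 7 for the second, and HOM exceeded the WT mean of *Arc* in 2 of 6. HOM gave 0.42 for *Npas4* and 0.15 for *Arc* without the libraries set apart.

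*Nr4a1* spanned 30.6, 50.4 and 112.8 cpm in WT striatum, 31.2, 53.9 and 100.8 in HET and 32.4, 50.6 and 215.2 in HOM (−0.01, 0.42, adjusted p 0.995, and 0.55, 0.44, 0.784). *Egr1* spanned 206, 231.5 and 360.4 cpm in WT, 194.5, 238.8 and 324.3 in HET and 182, 261 and 458 in HOM (−0.11, 0.22, adjusted p 0.788, and 0.14, 0.22, 0.869). Medians of both genes were close in the 3 genotypes. Leaving out the libraries set apart, *Nr4a1* gave −0.098 in HET and 0.31 in HOM, and *Egr1* 0.014 in HOM.

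For HET versus WT in Nestin-Cre STR the QL test called 0 of 32 members (0% of all genes), 6 had an unadjusted p under 0.05 (17.3%) and the LRT called 3 higher and 4 lower (8.57%). DESeq2 called 2 lower (3.61%) and 7 had an unadjusted p under 0.05 there (14.3%). The genes that DESeq2 called were *Ier5*, a nuclear regulator of heat shock factor, and *Homer1*, named after their values were seen. *Ier5* held 49.1, 59.2 and 80.1 cpm in WT and 39.5, 46.4 and 51.6 in HET, and *Homer1* 211.9, 245 and 270.1 against 164.5, 186.5 and 227.1. For each, 7 of 7 HET libraries lay below the WT mean (QL −0.48, error 0.13, adjusted p 0.175, and −0.39, 0.10, 0.175). The LRT called *Fos*, *Npas4* and *Btg2* higher and *Ier5*, *Dusp6*, *Klf10* and *Homer1* lower.

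For HOM versus WT it was 0 of 32 (0% of all genes), 10 at an unadjusted p under 0.05 (4.62%), and 12 higher and 0 lower by the LRT (1.91%). DESeq2 called 0, with 11 at an unadjusted p under 0.05 (4.34% of all genes by DESeq2). 19 of 32 members were positive in HET (median 0.05) and 27 of 32 in HOM (median 0.36), against 7523 and 7547 of 14494 genes. The striatal markers themselves summed to means of 9492, 7000 and 8332 cpm in WT, HET and HOM, with 7 of 7 HET and 5 of 6 HOM libraries below the WT mean, and their part was not tested. Without the libraries that stood apart, 16 of 32 were positive in HET and 22 of 32 in HOM (median 0.18), and 0 were called in either.

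*Klf4* gave the 1 case in which a genotype did not overlap WT among all members and comparisons, and is named for that after its values were seen. How many of all genes lie apart in this way was not counted, so the case is a description only. Its level was 1.15, 2.09 and 2.53 cpm in WT striatum, 1.15, 1.92 and 6.59 in HET and 2.54, 2.85 and 5.11 in HOM, so 6 of 6 HOM libraries lay just above the highest WT. QL gave 0.36 (error 0.33, adjusted p 0.555) for HET and 0.70 (0.34, 0.784) for HOM.

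Nestin-Cre nigra had low levels, with *Egr1* and *Npas4* higher in most libraries that carried the allele. *Egr1* held 12.0, 16.9 and 44.7 cpm in WT, 26.3, 30.4 and 79.9 in HET and 16.6, 32.8 and 42.2 in HOM, and the HET libraries were above the WT mean in 7 of 7, the HOM in 5 of 6. Its log2 fold changes were 0.90 (error 0.31, adjusted p 0.518) and 0.58 (0.32, 0.892). *Npas4* held 1.08, 3.30 and 8.28 cpm in WT, 3.32, 8.90 and 15.1 in HET and 2.42, 5.23 and 12.7 in HOM (1.08, 0.43, adjusted p 0.518, and 0.74, 0.45, 0.892). Ranges overlapped, the highest WT library of both genes coming from 1 mouse, whose cortex was the one set apart above. The highest HET library of *Egr1* was the nigra set apart, and without it HET gave 0.62 for *Egr1* and 0.83 for *Npas4*.

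*Fos* held 6.40, 12.5 and 26.2 cpm in WT nigra, 11.2, 19.2 and 30.8 in HET and 13.5, 22.4 and 35.0 in HOM (0.46, 0.31, adjusted p 0.54, and 0.71, 0.32, 0.892). *Arc* held 27.6, 31.2 and 42.6 cpm in WT, 25.0, 35.5 and 53.9 in HET and 18.7, 27.7 and 36.0 in HOM (0.08, 0.17, adjusted p 0.836, and −0.22, 0.18, 0.892). Levels of *Fos* exceeded the WT mean in 5 of 7 HET and 5 of 6 HOM libraries. Without the HET nigra set apart *Arc* gave −0.053 for HET.

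*Nr4a1* held 6.46, 8.04 and 21.6 cpm in WT, 7.01, 11.8 and 28.1 in HET and 6.27, 10.5 and 22.3 in HOM (0.41, 0.33, adjusted p 0.592, and 0.28, 0.35, 0.904). *Btg2* held 8.54, 12.1 and 20.9 cpm in WT, 11.8, 14.4 and 16.2 in HET and 11.9, 14.5 and 21.7 in HOM (0.20, 0.17, adjusted p 0.595, and 0.28, 0.17, 0.892). Genotypes overlapped for both. Without the HET nigra set apart *Nr4a1* gave 0.12 for HET.

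In this region, HET versus WT, the QL test called 0 of 33 members (0% of all genes), 3 had an unadjusted p under 0.05 (8.99%) and the LRT called 4 higher, *Fosb*, *Egr1*, *Egr3* and *Npas4* (2.23%). HOM versus WT gave 0 of 33 (0% of all genes), 3 at an unadjusted p under 0.05 (4.09%) and 2 higher by the LRT, *Fos* and *Egr1* (0.8%). DESeq2 called 0 in either, with 4 and 4 at an unadjusted p under 0.05 (7.81% and 3.92% of all genes by DESeq2). Positive members numbered 21 of 33 in HET (median 0.12) and 24 of 33 in HOM (median 0.13), against 7489 and 7548 of 14873 genes. Without the HET nigra that stood apart, 13 of 33 were positive in HET, with a median of −0.05. Oligodendrocyte markers summed to means of 28530, 23930 and 22801 cpm in WT, HET and HOM nigra, with 7 of 7 and 6 of 6 libraries below the WT mean, and their part was not tested.

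In AAV-Cre cortex the 6 genes overlapped between genotypes, and in HOM most members stood lower. *Fos* held 5.59, 18.0 and 42.2 cpm in WT, 8.17, 23.7 and 36.4 in HET and 3.30, 16.8 and 32.3 in HOM (log2 fold change 0.07, error 0.43, adjusted p 0.963, and −0.36, 0.42, 0.732). *Npas4* held 13.6, 40.7 and 78.0 cpm in WT, 17.7, 46.1 and 58.2 in HET and 11.3, 25.1 and 56.4 in HOM (−0.06, 0.38, adjusted p 0.964, and −0.67, 0.38, 0.413). 7 of 8 HOM libraries lay below the WT mean of *Npas4*, and 3 of 8 above that of *Fos*.

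*Arc* held 53.8, 126 and 288.8 cpm in WT, 68.3, 137.8 and 269.7 in HET and 50.4, 106 and 313.5 in HOM (0.10, 0.42, adjusted p 0.942, and −0.16, 0.41, 0.894). *Egr1* held 137.4, 174.1 and 268.6 cpm in WT, 159.9, 206.5 and 286.6 in HET and 122.6, 190.1 and 275.8 in HOM (0.23, 0.18, adjusted p 0.601, and 0.04, 0.17, 0.948). Each genotype covered nearly the whole range of the others.

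*Nr4a1* held 52.4, 84.3 and 150.3 cpm in WT, 56.3, 81.8 and 134.3 in HET and 38.7, 67.7 and 124.9 in HOM (−0.04, 0.27, adjusted p 0.962, and −0.38, 0.26, 0.519). *Btg2* held 13.6, 22.7 and 42.7 cpm in WT, 12.4, 20.5 and 31.2 in HET and 12.5, 19.0 and 37.9 in HOM (−0.40, 0.27, adjusted p 0.538, and −0.34, 0.26, 0.558). These levels overlapped too. Without the HET cortex set apart the HET values were 0.044 for *Nr4a1* and 0.070 for *Npas4*, a change of direction for both, and 0.21 for *Fos* and 0.22 for *Arc*.

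By the QL test AAV-Cre PFC gave 0 of 34 members for HET (0% of all genes) with 0 at an unadjusted p under 0.05 (12.3%), while the LRT called *Homer1* higher and *Btg2* lower (1.7%). HOM gave 0 of 34 (0.0137% of all genes) with 1 at an unadjusted p under 0.05 (14.2%), and the LRT called 1 higher, *Ier5*, and 4 lower, *Fos*, *Npas4*, *Nr4a1* and *Btg2* (2.93%). DESeq2 called 0 in either, with 1 and 2 at an unadjusted p under 0.05 (9.74% and 11.3% of all genes by DESeq2). 23 of 34 members were positive in HET (median 0.05) and 9 of 34 in HOM (median −0.13), against 7218 and 7162 of 14628 genes. Without the HET cortex that held choroid plexus transcripts, 28 of 34 were positive in HET (median 0.09).

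AAV-Cre striatum, the injected tissue and the one in which *Gdnf* separated HOM from WT, had no member at an unadjusted p under 0.05 by the QL test. *Fos* held 2.203, 6.86 and 25.7 cpm in WT, 4.27, 9.99 and 20.5 in HET and 2.36, 5.77 and 15.4 in HOM, with log2 fold changes of −0.22 (error 0.51) and −0.91 (0.52). *Npas4* held 10.6, 31.0 and 70.0 cpm in WT, 20.3, 43.7 and 65.9 in HET and 11.4, 24.6 and 38.4 in HOM (0.11, 0.42, and −0.68, 0.43). HOM libraries below the WT mean numbered 6 of 7 for each, and HET lay within the WT range.

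*Arc* held 48.6, 78.4 and 211.8 cpm in WT, 55.3, 103.1 and 175 in HET and 39.1, 73.3 and 181.8 in HOM (−0.12, 0.38, and −0.42, 0.38). *Egr1* held 120, 184.1 and 274.8 cpm in WT, 137.8, 200.2 and 269.3 in HET and 119.6, 152.4 and 283.8 in HOM (0.04, 0.22, and −0.08, 0.22). Genotypes overlapped widely for both.

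*Nr4a1* held 29.8, 56.1 and 121.4 cpm in WT, 32.4, 58.7 and 116.2 in HET and 20.2, 38.6 and 122.4 in HOM (−0.09, 0.41, and −0.44, 0.41). *Btg2* held 7.20, 10.1 and 16.3 cpm in WT, 6.79, 9.17 and 13.3 in HET and 6.96, 7.83 and 13.2 in HOM (−0.23, 0.20, and −0.36, 0.20). Adjusted p rounded to 1.00 for each of the 6 genes in either genotype.

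Over the members AAV-Cre STR gave 0 of 33 by QL in HET (0% of all genes) and HOM (0%), with 0 at an unadjusted p under 0.05 in either (1.71% and 4.58%). The LRT called 0 in HET (0.382%) and 5 lower in HOM, *Fos*, *Junb*, *Arc*, *Npas4* and *Nr4a1* (1.19%). DESeq2 called 0 in either, with 1 and 0 at an unadjusted p under 0.05 (1.5% and 3.74% of all genes by DESeq2). 12 of 33 were positive in each (medians −0.09 and −0.08), against 7408 and 7315 of 14655 genes.

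In AAV-Cre nigra most members had negative values with the allele, and most of those of the 6 came nearer 0 or changed direction without the libraries set apart. *Nr4a1* held 12.8, 16.8 and 24.3 cpm in WT, 10.4, 13.3 and 16.3 in HET and 8.74, 12.9 and 16.2 in HOM, with 7 of 7 HET and 8 of 8 HOM libraries below the WT mean and 4 HOM libraries below the lowest WT. Its log2 fold changes were −0.40 (error 0.13, adjusted p 0.946) and −0.42 (0.13, 0.563). *Npas4* held 3.01, 9.21 and 17.5 cpm in WT, 4.83, 6.92 and 9.75 in HET and 4.32, 6.78 and 11.2 in HOM (−0.34, 0.27, adjusted p 0.951, and −0.38, 0.26, 0.738). 7 of 8 HOM libraries lay below the WT mean of *Npas4*. Its highest WT library is the nigra set apart for striatal and cortical markers, and without the libraries set apart the HET and HOM values were −0.030 and −0.14 for *Npas4* and −0.32 and −0.32 for *Nr4a1*.

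*Fos* held 5.31, 11.1 and 29.8 cpm in WT, 6.29, 10.8 and 18.0 in HET and 5.32, 11.0 and 28.2 in HOM (−0.31, 0.38, adjusted p 0.98, and −0.17, 0.37, 0.924). *Egr1* held 10.7, 23.6 and 49.9 cpm in WT, 9.94, 18.0 and 29.6 in HET and 13.5, 19.0 and 32.7 in HOM (−0.35, 0.29, adjusted p 0.951, and −0.23, 0.28, 0.865). Medians of *Fos* were nearly equal, and the highest WT library of either gene, the nigra set apart for its striatal and cortical markers, stood above all others. Without the libraries set apart the HET and HOM values were 0.064 and 0.10 for *Fos* and 0.035 and 0.046 for *Egr1*, a change of direction.

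*Arc* held 19.9, 31.1 and 57.8 cpm in WT, 17.9, 31.5 and 35.6 in HET and 25.2, 31.5 and 47.6 in HOM (−0.21, 0.19, adjusted p 0.959, and −0.0031, 0.18, 0.999). *Btg2* held 12.3, 16.7 and 22.3 cpm in WT, 12.5, 13.8 and 16.2 in HET and 11.8, 14.1 and 16.9 in HOM (−0.21, 0.11, adjusted p 0.946, and −0.21, 0.11, 0.676). Genotypes overlapped for *Arc* and, less widely, for *Btg2*. Without the libraries set apart the values of *Arc* were 0.064 and 0.18, also a change of direction, and those of *Btg2* −0.11 and −0.13.

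AAV-Cre SN gave 0 of 33 by QL in HET (0% of all genes) with 3 at an unadjusted p under 0.05 (4.69%), and 0 of 33 in HOM (0%) with 2 (7.49%). The LRT called 1 lower in each (2.19% and 1.47%), *Egr3*, named after its values were seen. *Egr3* held 2.21, 3.02 and 17.2 cpm in WT, 1.16, 2.64 and 3.91 in HET and 1.54, 2.28 and 5.94 in HOM, and 7 of 7 HET and 8 of 8 HOM libraries lay below a WT mean that 1 library raised. QL gave −1.14 (0.43, adjusted p 0.946) and −1.08 (0.42, 0.616), and −0.65 and −0.54 without the libraries set apart. DESeq2 called 0 in either, with 4 and 2 at an unadjusted p under 0.05 (3.73% and 6.11% of all genes by DESeq2). Positive members numbered 4 of 33 in HET (median −0.21) and 9 of 33 in HOM (median −0.16), against 7443 and 7818 of 14813 genes. Without the WT and HET nigra that stood apart these were 9 of 32 (median −0.09) and 14 of 32 (median −0.03).

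Whether a genotype effect differed between regions was tested as the striatal minus the cortical effect, both regions in 1 fit. That fit did not use that cortex and striatum came from the same mice, so its errors leave the pairing out. The QL test called 0 of 33 members in Nestin-Cre HET (0% of all genes), with 5 at an unadjusted p under 0.05 (6.31%), and the LRT called 0 higher and 7 lower (2.59%). Nestin-Cre HOM gave 0 of 33 (0% of all genes), 0 at an unadjusted p under 0.05 (3.02%) and 0 by the LRT (0.739%). AAV-Cre HET gave 0 of 34 (0%), 1 (4.18%) and 1 lower by the LRT (0.226%), and AAV-Cre HOM 0 of 34 (0%), 0 (4.19%) and 0 (0.325%). DESeq2 called 0 in the 4 tests, with 6, 0, 1 and 0 at an unadjusted p under 0.05 (5.27%, 2.7%, 3.64% and 3.61% of all genes by DESeq2). Medians over the members were −0.30, −0.10, −0.11 and −0.01 on the log2 scale. QL called 0 in the 4 tests without the libraries set apart, and the medians were −0.32, −0.27, −0.13 and −0.0078. It also called 0 with mouse as a replicate block, in mice that had both regions and the same genotype label in both.

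For HET in the Nestin-Cre model the striatal effect differed from the cortical by −0.70 (error 0.64) for *Arc*, −0.63 (0.33) for *Egr1* and −0.72 (0.54) for *Nr4a1*, and by 0.11 for *Fos*, −0.29 for *Npas4* and −0.25 for *Btg2*. HOM gave −0.32 for *Arc*, −0.16 for *Egr1*, −0.26 for *Nr4a1*, 0.43 for *Fos*, −0.20 for *Npas4* and −0.07 for *Btg2*. AAV-Cre mice gave these differences in HET (*Arc* −0.23, *Egr1* −0.19, *Nr4a1* −0.04, *Fos* −0.29, *Npas4* 0.17, *Btg2* 0.16) and in HOM (*Arc* −0.26, *Egr1* −0.11, *Nr4a1* −0.06, *Fos* −0.55, *Npas4* −0.01, *Btg2* −0.03). Without the libraries set apart Nestin-Cre HOM gave −0.72 for *Arc*, −0.27 for *Egr1*, −0.46 for *Nr4a1*, −0.071 for *Fos*, −0.39 for *Npas4* and −0.50 for *Btg2*, and AAV-Cre HET gave −0.12 for *Nr4a1*, 0.050 for *Npas4* and 0.083 for *Btg2*.

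Whether a genotype effect differed between the models was tested as the AAV-Cre minus the Nestin-Cre effect, and the medians over members were negative, near 0 for HET in nigra once the libraries set apart were left out. In cortex the HET test called 0 of 34 members (0.678% of all genes), with 2 at an unadjusted p under 0.05 (14.8%) and 8 lower by the LRT (3.24%). HOM called 0 of 34 (3.54% of all genes, 523 in number), with 12 at an unadjusted p under 0.05 (16.6%), and the LRT called 1 higher and 13 lower (4.2%). DESeq2 called 0 members in either, with 2 and 9 at an unadjusted p under 0.05 (11.5% and 12.5% of all genes by DESeq2). Medians were −0.18 and −0.42. QL also called 0 in either without the libraries set apart, with medians of −0.12 and −0.43.

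In cortex *Fos* differed by −0.97 (error 0.65, adjusted p 0.5) for HET and −1.39 (0.68, 0.293) for HOM. *Arc* gave −0.75 (0.61, 0.591) and −1.03 (0.64, 0.423), and *Egr1* −0.28 (0.30, 0.705) and −0.25 (0.32, 0.736). *Npas4* gave −0.93 (0.53, 0.412) and −1.45 (0.56, 0.173), and *Nr4a1* −0.74 (0.41, 0.406) and −1.19 (0.43, 0.153). *Btg2* had the largest HET difference of the 6, −1.37 (0.48, 0.192), with −1.28 (0.50, 0.177) for HOM. The HET and HOM values without the libraries set apart ran from −1.28 (*Btg2*) to −0.23 (*Egr1*) and from −1.50 (*Npas4*) to −0.26 (*Egr1*).

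In striatum the HET test called 0 of 33 members (0.00673% of all genes), with 6 at an unadjusted p under 0.05 (15.5%), and the LRT called 2 higher and 5 lower (6.11%). DESeq2 called 1 higher of the 7 members left among the 5066 genes that its own filter kept (4.7% of those), *Homer1*, named after its value was seen (0.42, adjusted p 0.097), with 6 at an unadjusted p under 0.05 (12.5% of all genes by DESeq2). HOM called 0 of 33 (0.0202% of all genes), with 9 at an unadjusted p under 0.05 (6.67%), 11 lower by the LRT (1.74%) and 0 by DESeq2, where 9 had an unadjusted p under 0.05 (5.6%). *Fos* differed by −1.38 (error 0.77, adjusted p 0.372) for HET and −2.38 (0.79, 0.69) for HOM. For *Arc* the values were −0.29 and −0.98, for *Egr1* 0.15 and −0.22, for *Npas4* −0.48 and −1.26, for *Nr4a1* −0.08 and −0.99 and for *Btg2* −0.97 and −1.24. Medians were −0.16 and −0.54. With the libraries set apart left out, QL called 0 in either and the medians were −0.11 and −0.32, with −1.83 for *Fos*, −0.58 for *Arc*, −0.10 for *Egr1*, −1.12 for *Npas4*, −0.75 for *Nr4a1* and −0.81 for *Btg2* in HOM and 0.013 for *Nr4a1* in HET.

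In nigra the HET test called 0 of 34 (0% of all genes), with 8 at an unadjusted p under 0.05 (14.0%) and 8 lower by the LRT (4.56%), and HOM called 0 of 34 (0%), with 6 (3.32%) and 3 lower (1.07%). DESeq2 called 0 in either, with 8 and 6 at an unadjusted p under 0.05 (11.1% and 3.06% of all genes by DESeq2). *Egr1* differed by −1.24 (error 0.43, adjusted p 0.312) for HET and −0.81 for HOM, and *Npas4* by −1.42 (0.50, 0.312) and −1.12. The remaining HET and HOM values were −0.78 and −0.89 for *Fos*, −0.28 and 0.22 for *Arc*, −0.81 and −0.70 for *Nr4a1* and −0.41 and −0.49 for *Btg2*. Adjusted p was 0.986 for each of the 6 in HOM, and medians were −0.36 and −0.37.

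These nigra values depended on the libraries set apart, 1 WT and 1 HET of the AAV-Cre and 1 HET of the Nestin-Cre model. Without them 0 of 33 were called in either test, 1 and 2 had an unadjusted p under 0.05 (11.0% and 2.84% of all genes), 14 and 9 of 33 were positive, and the medians were −0.087 and −0.23. *Egr1* then differed by −0.59 (error 0.39, adjusted p 0.507) for HET and −0.53 for HOM, and *Npas4* by −0.85 (0.49, 0.469) and −0.87. *Arc* turned positive in HET (0.13, and 0.41 in HOM), and *Fos* gave −0.39 and −0.61, *Nr4a1* −0.44 and −0.59 and *Btg2* −0.29 and −0.40.

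WT mice of the models also differed for some members, where Cre source, age and injection cannot be told apart. AAV-Cre against Nestin-Cre cortex called 1 of 33 members higher (24.3% of all genes) and 5 lower (22.6%). *Klf4* was higher, at 3.80, 4.79 and 7.36 against 2.95, 3.90 and 5.09 cpm (0.44, error 0.16, adjusted p 0.0389). *Nr4a3*, a nuclear receptor kin to *Nr4a1*, was lower at 13.0, 18.1 and 21.0 against 16.6, 26.7 and 34.6 cpm (−0.61, 0.15, 0.0049). *Homer1* (−0.45, 0.12, 0.00847) and *Egr1* (−0.42, 0.17, 0.0595) were lower too, and each of these 4 overlapped. Without the WT cortex set apart 2 were higher (21.6% of all genes), *Klf4* and *Klf2*, the latter named after its value was seen (0.42, 0.19, 0.0952), and 5 lower (23.4%).

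In striatum 7 of 32 members were higher (32.0% of all genes) and 6 lower (29.9%) in AAV-Cre WT mice. *Klf10*, a TGF-β-inducible factor, was lower without overlap, at 9.68, 12.0 and 15.4 against 20.3, 22.7 and 27.4 cpm (−0.91, error 0.11, adjusted p 2.1e-05). *Dusp6*, the phosphatase of ERK, was lower at 19.9, 28.4 and 32.4 against 29.4, 43.1 and 49.3 cpm (−0.61, 0.14, 0.0022), and *Nr4a3* by −0.62 (0.23, 0.0319). *Klf2* (0.91, 0.28, 0.0117), *Klf4* (0.75, 0.22, 0.00935) and *Fosb* (0.68, 0.20, 0.00924) were higher, each with some overlap.

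Nigra of AAV-Cre WT mice had 7 of 32 members higher (30.5% of all genes) and 3 lower (31.9%). *Fosb*, whose splice form ΔFosB builds up with repeated stimulation, held 1.51, 2.53 and 5.57 against 0.213, 1.08 and 2.11 cpm (1.42, error 0.40, adjusted p 0.00805). *Npas4* held 3.01, 9.21 and 17.5 against 1.08, 3.30 and 8.28 cpm (1.32, 0.41, 0.0125), and *Klf4* was higher by 0.87 (0.25, 0.00947). Lower were *Dusp6* (−0.40, 0.12, 0.0118), *Tiparp* (−0.37, 0.13, 0.0238) and *Gadd45g* (−0.23, 0.10, 0.0557). All 6 overlapped between the models. Without the WT nigra set apart 7 were higher (29.4%) and 3 lower (30.9%), with *Fosb* at 1.19 and *Npas4* at 1.08.

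Mice of 1 genotype differed widely from each other in these genes. The median standard deviation of log2 cpm within genotype over members was 0.47, 0.45 and 0.56 in Nestin-Cre cortex, striatum and nigra, against 0.16, 0.23 and 0.25 for all genes. AAV-Cre mice gave 0.40, 0.41 and 0.35 against 0.17, 0.14 and 0.15. *Fos* was the most variable member (1.01, the median over regions and models, range 0.60 to 1.13), then *Egr2* (0.95) and *Npas4* (0.86), and *Ier5* (0.22), *Jun* (0.25) and *Homer1* (0.26) the least.

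Members moved together from mouse to mouse within a region. With genotype means removed, the median Pearson r over pairs of members was 0.536 in Nestin-Cre cortex (474 of 528 pairs positive), 0.351 in striatum (423 of 496) and 0.429 in nigra (496 of 528). AAV-Cre mice gave 0.486 in cortex (525 of 561), 0.511 in striatum (502 of 528) and 0.254 in nigra (433 of 528), while pairs of all genes had medians near 0. *Nr4a1* (median r with the others 0.773), *Fos* (0.725), *Egr2* (0.715) and *Arc* (0.715) were at the centre of the set in Nestin-Cre cortex. *Homer1* (0.158), *Nptx2* (0.127) and *Klf2* (−0.162) had the lowest values there, with *Atf3* (0.169) and *Ier5* (0.202) next. In AAV-Cre cortex *Atf3* was lowest (−0.0944), *Homer1* (0.166) and *Klf2* (0.202) were low again, and *Nptx2* had 0.518 and *Ier5* 0.572. All pairs share their libraries, so these values are a description.

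**Figure D3:**
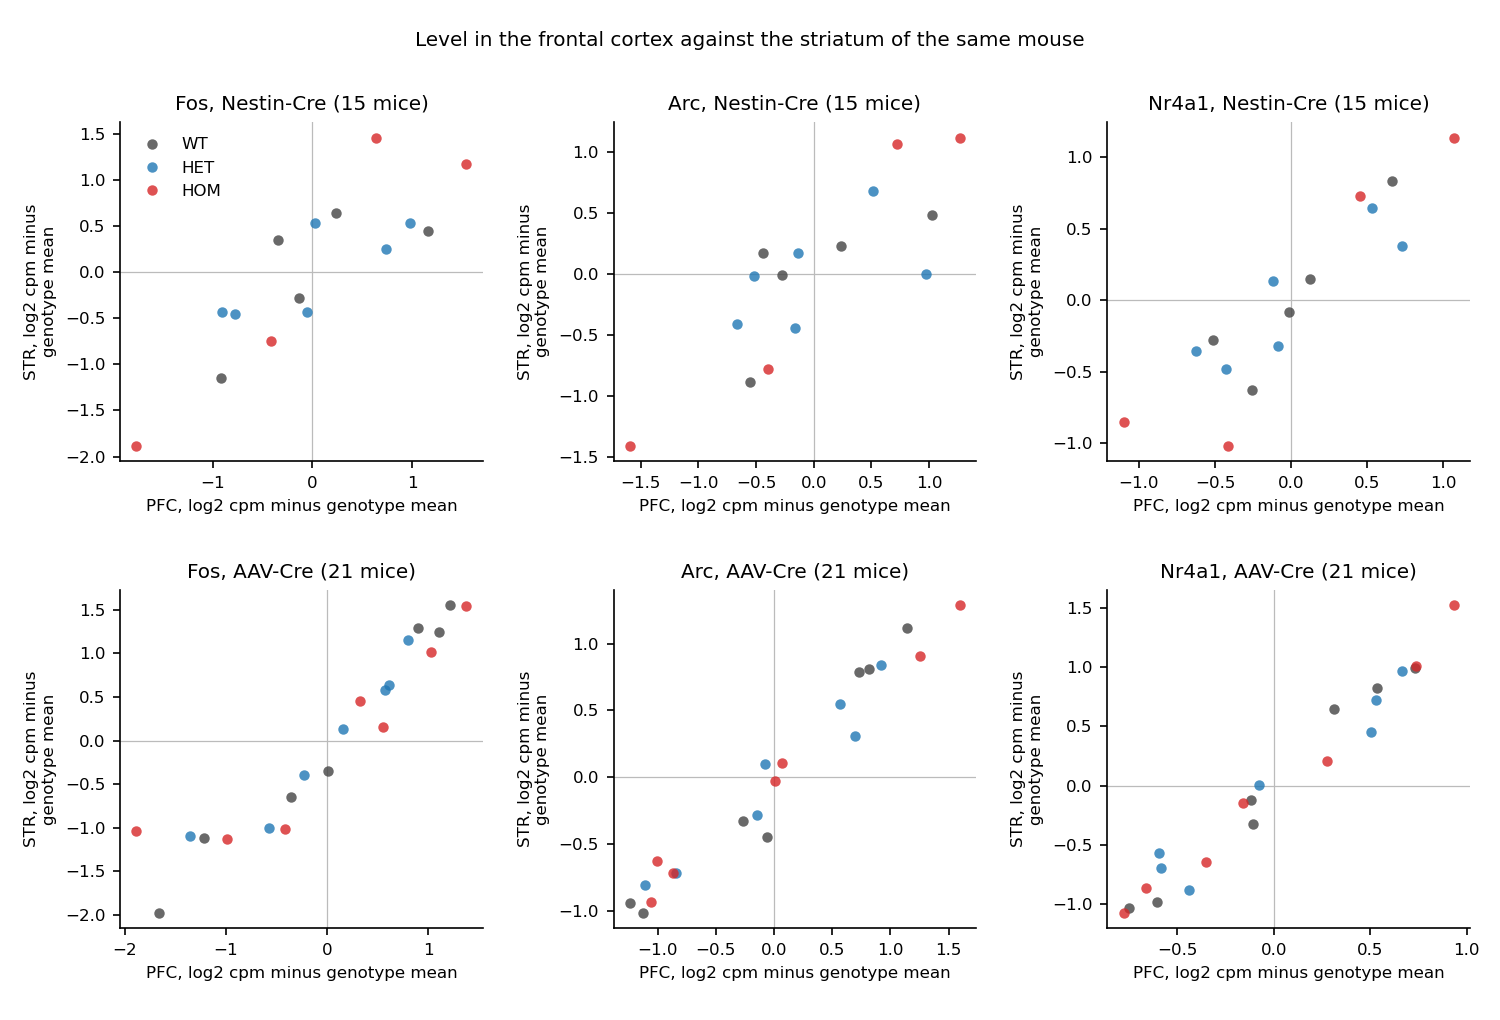
*Fos*, *Arc* and *Nr4a1* in cortex against striatum of the same mouse, as log2 cpm minus the mean of the genotype, for 15 Nestin-Cre and 21 AAV-Cre mice. Each point is 1 mouse.

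Many members were high or low in cortex and striatum of the same mice. For each gene r was computed over mice between 2 regions, genotype means removed, with a 2-sided permutation p from 100000 shufflings within genotype (smallest possible p 1e-05) adjusted over all genes tested. In AAV-Cre mice (21 mice) cortex and striatum gave 22 of 33 members an adjusted p under 0.1 (9.64% of all genes), with a median r of 0.71 against 0.223 for all genes and 33 of 33 positive. Rank correlation (rho) gave 20 (8.19%). In Nestin-Cre mice (15 mice: 5 WT, 6 HET and 4 HOM) it was 11 of 32 (8.27% of all genes), with a median r of 0.633 against 0.294, 32 of 32 positive and 11 by rho (6.14%).

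AAV-Cre cortex and striatum were closest for *Nr4a1*, with r 0.983 (permutation p 1e-05, adjusted p 0.00148, rho 0.979 with permutation p 1e-05, and r 0.979 without the 2 mice farthest from the median). *Arc* gave r 0.979 (rho 0.979, r without 2 mice 0.973), *Fos* 0.948 (rho 0.971, without 2 mice 0.963) and *Egr2* 0.936 (rho 0.926, without 2 mice 0.938), each at the smallest permutation p for r and rho and the same adjusted p. *Npas4* gave r 0.935 (same p, rho 0.886 with permutation p 4e-05, without 2 mice 0.920). *Egr1* (0.929) and *Btg2* (0.914) were close behind, and *Gadd45b* (0.318), *Klf2* (0.214) and *Cyr61* (0.0585) were the lowest.

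In Nestin-Cre mice the same pair of regions gave *Nr4a3* the highest r, 0.940 (permutation p 1e-05, adjusted p 0.014, rho 0.939 with permutation p 1e-05, without 2 mice 0.923). *Nr4a1* followed with r 0.904 (permutation p 0.0003, adjusted p 0.0255, rho 0.868 with p 0.00074, without 2 mice 0.860). *Egr2* gave 0.896 (permutation p 0.00025, adjusted p 0.0239, rho 0.864 with p 0.00126, without 2 mice 0.799), and *Fosl2* 0.889 (0.0005, 0.0301, rho 0.925 with p 0.00026, without 2 mice 0.851).

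*Fos* gave r 0.851 (permutation p 0.00157, adjusted p 0.0488, rho 0.85 with p 0.00171, without 2 mice 0.734), and *Arc* 0.832 (permutation p 0.004, adjusted p 0.0704, rho 0.832 with p 0.00203, without 2 mice 0.679). *Npas4* (0.849, adjusted p 0.0513), *Egr1* (0.848, 0.0491) and *Btg2* (0.826, 0.0638) passed as well. *Ier5* (0.263), *Klf4* (0.222) and *Gadd45b* (0.124) had the lowest r. Without the mice whose libraries stood apart, 12 Nestin-Cre mice gave 2 of 32 (1.07% of all genes), *Fosl2* and *Nr4a3*, with 32 of 32 positive and a median r of 0.649. For AAV-Cre mice the count was 21 of 33 (9.12% of all genes) with a median r of 0.703 (20 mice). At an adjusted p under 0.05, a threshold added after seeing the data, all mice gave 17 of 33 in AAV-Cre (6.12% of all genes) and 6 of 32 in Nestin-Cre (3.32%).

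**Figure D4:**
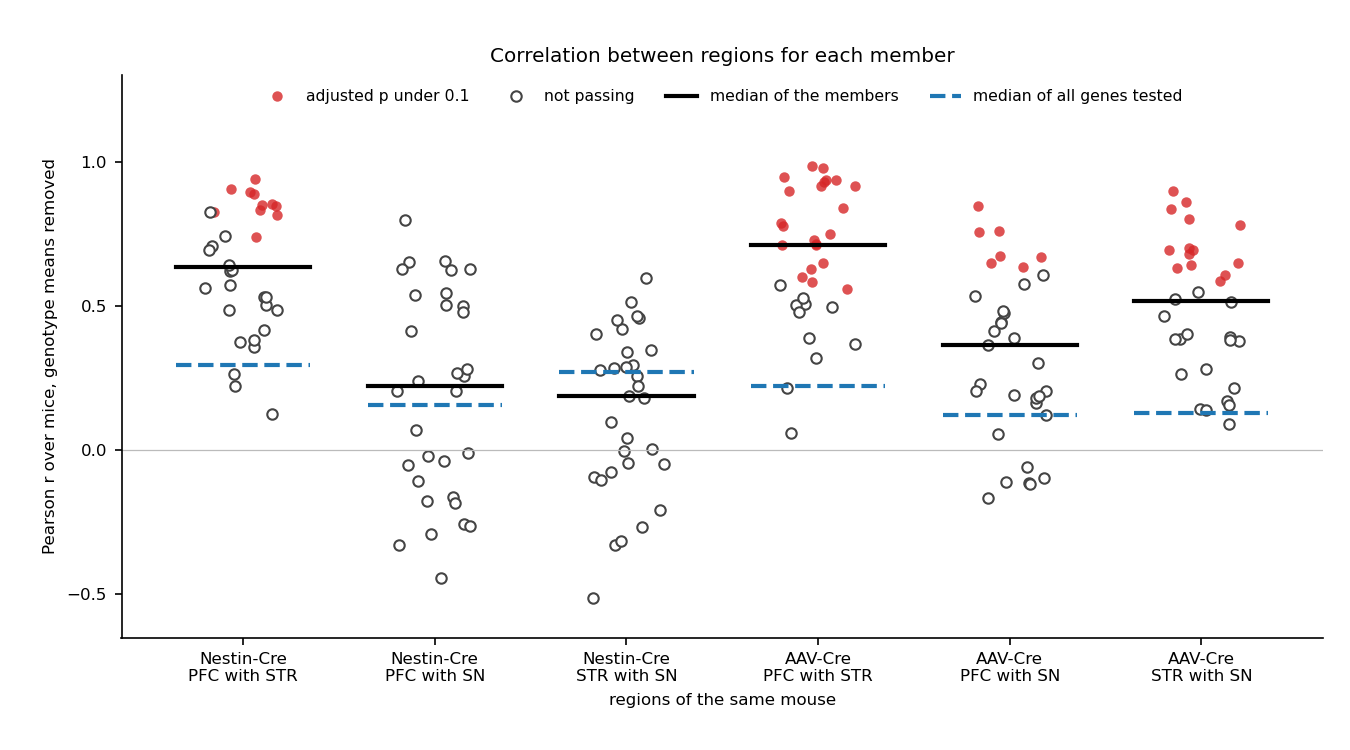
Pearson r between regions of the same mouse for each member, genotype means removed. Filled points passed an adjusted p of 0.1, and lines mark the median of the members (solid) and of all genes tested (dashed).

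In AAV-Cre mice a part of the members also went together between nigra and the forebrain. Striatum and nigra (21 mice) gave 14 of 32 members an adjusted p under 0.1 (7.94% of all genes), 11 by rho (6.68%), with a median r of 0.518 against 0.129 for all genes and 32 of 32 positive. *Junb* led with r 0.897 (permutation p 1e-05, adjusted p 0.00141, rho 0.935 with permutation p 1e-05, without 2 mice 0.888), then *Egr1* with 0.860 (same values of p, rho 0.855, without 2 mice 0.858). *Fos* gave 0.837 (permutation p 5e-05, adjusted p 0.00348, rho 0.842 with p 4e-05, without 2 mice 0.780), *Egr4* 0.801 (0.00014, 0.00688, rho 0.830 with p 4e-05, without 2 mice 0.833) and *Jun* 0.780 (6e-05, 0.00382, rho 0.749 with p 0.00027, without 2 mice 0.672). *Arc* (0.702), *Btg2* (0.692), *Nr4a1* (0.631) and *Npas4* (0.512, adjusted p 0.324) came lower. *Gadd45b* (0.143), *Gadd45g* (0.138) and *Nptx2* (0.0884) had the lowest r. Without the mice set aside 10 of 32 passed (6.2% of all genes, 19 mice, median r 0.522), and at an adjusted p under 0.05 all mice gave 7 of 32 (5.08%).

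Cortex and nigra (22 AAV-Cre mice) gave 7 of 33 (4.71% of all genes), 6 by rho (3.99%), with a median r of 0.363 against 0.122 and 27 of 33 positive. *Fos* gave r 0.845 (permutation p 1e-05, adjusted p 0.00153, rho 0.866 with permutation p 1e-05, without 2 mice 0.785), *Egr1* 0.759 (0.00013, 0.00803, rho 0.717 with p 0.0006, without 2 mice 0.739) and *Junb* 0.756 (0.0001, 0.00667, rho 0.797 with p 3e-05, without 2 mice 0.711). *Btg2* (0.674, permutation p 0.00331, adjusted p 0.0809, rho 0.709 with p 0.00153) and *Arc* (0.670, 0.00104, 0.0365, rho 0.657 with p 0.00226) completed the first 5. *Gadd45g* (−0.116), *Homer1* (−0.118) and *Maff* (−0.168) were at the low end. Without the 2 AAV-Cre mice set apart the count was 4 of 33 (4.31% of all genes), *Fos*, *Junb*, *Arc* and *Egr1* (20 mice, median r 0.337), and at an adjusted p under 0.05 all mice gave 4 of 33 (3.26%).

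Nestin-Cre nigra gave no call. Cortex and nigra (15 mice) gave 0 of 32 members (1.25% of all genes), 8 at an unadjusted p under 0.05 (11.4%) and 0 by rho, with a median r of 0.223 against 0.155. *Klf2* was highest (r 0.798, permutation p 0.00254, adjusted p 0.143, rho 0.764 with p 0.00642), then *Junb* (0.655, 0.265), *Fos* (0.651, 0.249), *Egr1* (0.629) and *Fosb* (0.627), and *Klf10* (−0.290), *Dusp5* (−0.328) and *Homer1* (−0.442) lowest. Striatum and nigra (18 mice) gave 0 of 31 (4.96% of all genes), 5 at an unadjusted p under 0.05 (21.4%) and 0 by rho, with a median r of 0.186 against 0.271. *Klf4* was highest there (0.598, permutation p 0.0157, adjusted p 0.146, rho 0.496 with p 0.0579), then *Klf2* (0.513), *Csrnp1* (0.464), *Btg2* (0.457) and *Npas4* (0.450). *Homer1* (−0.316), *Ptgs2* (−0.328) and *Dusp5* (−0.513) were lowest. Without the mice set aside 0 of 32 (13 mice, median r 0.13) and 0 of 31 (16 mice, 0.145) passed. The difference in r between the models was not tested.

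Relations of *Fos* and *Arc* to summed marker levels and other lists were run within region as 144 tests, and 0 of the 96 in cortex and striatum passed. In AAV-Cre nigra (22 libraries) *Fos* went with the cortical markers (r 0.726, permutation p 0.00061, adjusted p 0.0727, rho 0.717 with permutation p 0.00054 and adjusted p 0.0778, r 0.629 without the 2 farthest). *Arc* did so with r 0.642 (permutation p 0.00207, adjusted p 0.0994, rho 0.572 with permutation p 0.00877 and adjusted p 0.253, r 0.477 without 2). In Nestin-Cre nigra (19 libraries) *Fos* ran against the oligodendrocyte markers (r −0.750, permutation p 0.00101, adjusted p 0.0727, rho −0.749 with permutation p 0.00117 and adjusted p 0.0842, r −0.733 without 2). Their part in the nigra results was not tested.

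Genes outside the set that moved most like the 6 in cortex of both models were *Arl4d* (median r 0.80 and 0.785 in the Nestin-Cre and AAV-Cre model), *Spry4* (0.671 and 0.669), *Irf2bp2* (0.749 and 0.667), *Midn* (0.711 and 0.655) and *Irf9* (0.619 and 0.623), of 14289 genes ranked by the lower value. *Tob2* (0.679 and 0.615), *Zfp36l1* (0.686 and 0.602), *Rasl11a* (0.597 and 0.740), *Stk40* (0.582 and 0.602) and *Lef1* (0.583 and 0.567) made up the first 10.

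Genes upstream of the members, 35 receptors, channels, kinases and factors of the calcium and ERK pathways, had no QL genotype call in any region. In Nestin-Cre cortex 23 of 35 were positive in HET (median log2 fold change 0.03) and 16 in HOM (median −0.01). Nigra against cortex called 2 higher and 29 lower with Nestin-Cre (37.6% and 41.2% of all genes) and 2 and 26 with AAV-Cre (37.7% and 36.4%). Nigra against striatum called 4 and 28 (37.8% and 38.3%), and 5 and 25 (39.7% and 35.9%). *Crtc2*, a CREB coactivator, was called in the model test of cortex for HET (−0.34, error 0.09, adjusted p 0.084) and HOM (−0.41, 0.09, 0.0155), and *Cacna1d*, an L-type calcium channel, for HOM (−0.34, 0.11, 0.0898). When the libraries set apart were left out the adjusted p of *Crtc2* was 0.179 for HET and 0.0148 for HOM, and that of *Cacna1d* 0.0991.

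Promoters are shown for their letters, and their part in the movement of members from mouse to mouse was not tested. RefSeq sequences of 250 bases before the gene start (GRCm38.p6) matched 26 of 34 members. *Arc*, *Egr1*, *Egr3*, *Ier2*, *Klf10*, *Sik1*, *Trib1* and *Nptx2* had no entry. Both strands were searched for the CREB element CRE (TGACGTCA), its core TGACG, which each CRE holds on both strands, the AP-1 element TGANTCA, the EGR element GCGGGGGCG and the CArG box of SRF.

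The CRE was found in 3 members, *Btg2*, *Dusp1* and *Maff* (1.77% of the 27025 genes with an entry hold it), and the core in 18 (19.8%). The CArG box was found in 2, *Egr2* and *Dusp5* (1.62%), the EGR element in 5, *Fosb*, *Fosl2*, *Nr4a1*, *Klf2* and *Klf4* (2.93%), and the AP-1 element in 1, *Csrnp1* (7.82%). A match is a description of the letters and not a site in use.

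Below stand 7 of these promoters, 5′ to 3′ on the strand of the gene, with CRE, core and CArG letters in capitals. *Fos*, *Npas4*, *Nr4a1* and *Btg2* are those of the 6 named members with an entry, and *Dusp1*, *Egr2* and *Dusp5* were added for their CRE or CArG box. *Maff*, which also holds a CRE, is not printed. Those of *Fos* and *Dusp5* end 11 and 173 bases before the first base of the gene in the count table, and the other 5 end next to it. *Fos* lies at chr12:85473640-85473889 (plus strand), *Npas4* at chr19:4989972-4990221 (minus), *Nr4a1* at chr15:101266596-101266845 (plus), *Btg2* at chr1:134079156-134079405 (minus), *Dusp1* at chr17:26508473-26508722 (minus), *Egr2* at chr10:67537619-67537868 (plus) and *Dusp5* at chr19:53528895-53529144 (plus). *Nr4a1* shows 4 cores, *Dusp1* 3, *Fos*, *Npas4*, *Btg2* and *Egr2* 2 each and *Dusp5* 1, and *Dusp5* holds 2 CArG boxes against 1 in *Egr2*.
Fos: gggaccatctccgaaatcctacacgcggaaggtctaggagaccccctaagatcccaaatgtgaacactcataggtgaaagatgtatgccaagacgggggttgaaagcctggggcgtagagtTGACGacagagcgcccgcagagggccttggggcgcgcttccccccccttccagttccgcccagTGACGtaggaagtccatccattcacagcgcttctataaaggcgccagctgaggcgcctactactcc
Npas4: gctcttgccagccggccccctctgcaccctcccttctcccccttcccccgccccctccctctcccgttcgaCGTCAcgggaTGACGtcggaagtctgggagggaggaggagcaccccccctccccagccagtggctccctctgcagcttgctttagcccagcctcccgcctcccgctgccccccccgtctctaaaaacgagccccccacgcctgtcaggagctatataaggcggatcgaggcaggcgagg
Nr4a1: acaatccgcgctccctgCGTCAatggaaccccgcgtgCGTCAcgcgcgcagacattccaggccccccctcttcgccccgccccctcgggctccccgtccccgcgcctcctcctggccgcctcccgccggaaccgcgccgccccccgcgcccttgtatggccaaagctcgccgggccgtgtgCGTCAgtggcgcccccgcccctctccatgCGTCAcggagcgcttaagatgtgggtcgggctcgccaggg
Btg2: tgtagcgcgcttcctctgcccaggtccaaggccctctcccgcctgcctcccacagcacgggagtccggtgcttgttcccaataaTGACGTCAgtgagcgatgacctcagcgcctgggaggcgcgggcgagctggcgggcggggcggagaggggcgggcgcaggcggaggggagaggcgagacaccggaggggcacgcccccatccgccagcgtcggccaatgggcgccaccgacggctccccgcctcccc
Dusp1: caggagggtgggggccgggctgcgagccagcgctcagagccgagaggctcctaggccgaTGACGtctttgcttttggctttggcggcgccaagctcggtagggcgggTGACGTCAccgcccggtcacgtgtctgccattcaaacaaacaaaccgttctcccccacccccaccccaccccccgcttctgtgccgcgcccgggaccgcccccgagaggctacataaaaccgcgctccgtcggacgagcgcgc
Egr2: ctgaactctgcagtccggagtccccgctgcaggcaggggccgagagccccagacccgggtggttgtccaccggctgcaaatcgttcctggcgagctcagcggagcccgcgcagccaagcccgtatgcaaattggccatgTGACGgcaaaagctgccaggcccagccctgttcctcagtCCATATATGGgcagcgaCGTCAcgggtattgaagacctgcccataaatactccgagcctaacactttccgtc
Dusp5: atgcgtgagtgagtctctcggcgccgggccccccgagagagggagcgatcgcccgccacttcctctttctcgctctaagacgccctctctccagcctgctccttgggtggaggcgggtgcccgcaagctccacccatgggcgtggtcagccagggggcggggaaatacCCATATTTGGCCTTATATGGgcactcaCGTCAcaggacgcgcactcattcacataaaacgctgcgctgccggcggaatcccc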

How the data were processed

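The authors deposited 1 table of raw counts per gene for 121 libraries of poly(A) RNA. Their notes name bcl2fastq 2.20.0.422, STAR 2.5.2b on mm10 and featureCounts 1.5.1. Totals ran from 9869584 to 26750905 counts, so a member near 1 cpm rests on about 10 to 27 counts in a library. The members and all lists were chosen with earlier results of these data known.

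Counts were tested in R 4.3.3 with edgeR 4.0.16: TMM scaling, a filter that kept genes reaching 1 cpm in 3 or more libraries, trended dispersion and the quasi-likelihood F test, 2-sided. p-values were adjusted over all genes (Benjamini-Hochberg) and called under 0.1. Alternatives were the likelihood ratio test, DESeq2 1.42.0, its size factors, no filter, adjusted p under 0.05 and fits of only 2 genotypes. Fits of genotypes and regions were also run without the mouse labelled WT in cortex and HOM elsewhere. Fits of Nestin-Cre cortex also left out each HOM replicate in turn. Mouse as replicate block was a factor in the edgeR model. Fits without 7 libraries that stood apart by marker sums of at least 400 cpm were added after seeing the data.

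Correlations between regions used log2 cpm (prior count 0.5) with genotype means removed and 100000 permutations within genotype (Python 3.11.15, numpy 2.4.6), beside Spearman rho, a prior count of 2 and no TMM. As a check of the mouse numbers, profiles of the same mouse in 2 regions had a median r of 0.224 to 0.327 over pairs of regions, and other mice −0.0238 to −0.0109. In striatum with nigra 1 mouse of each model lay below the median of other mice (r −0.0792 and −0.0737), and the mouse itself was the best match for 9 of 18 and 12 of 21. For cortex with striatum it was the best match for 14 of 15 Nestin-Cre and 20 of 21 AAV-Cre mice. Cortex with nigra gave 11 of 15 and 21 of 22. In no pair of regions did the check hold for each mouse. Pairs of libraries within a group were checked for copies and none was found.

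Named in each genotype comparison were *Arc*, *Fos*, *Egr1*, *Npas4*, *Nr4a1*, *Btg2* and any member called. In region and model comparisons these were the 3 called members highest and the 3 lowest by fold change, and between regions the 5 highest and 3 lowest r. Also named were the 3 most and 3 least variable members, the 10 genes most like the 6, and list genes called or with the 3 largest fold changes. Genes named outside this rule are marked in the text.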

Additional observations from a re-analysis of the deposited data

Results flagged for a closer look

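A library was set out here when its gap to the nearest of its group was too large a share of the group's range by Dixon's test at the 95% level, which chance does in about 1 of 20 groups. Of 126 groups tested for the 6 named genes and the mean level of the members, 8 were set out, and of 54 groups tested for marker sums, 8 were.

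In Nestin-Cre HET nigra 1 mouse was highest for *Arc* at 53.9 cpm (next 37.3, lowest 25.05), for *Egr1* at 79.9 (next 42.2, lowest 26.3) and for *Nr4a1* at 28.1 (next 15.5, lowest 7.01). In Nestin-Cre WT nigra 1 mouse was highest for *Egr1* at 44.7 cpm (next 22.8, lowest 12.0), *Npas4* at 8.28 (next 3.55, lowest 1.08), *Nr4a1* at 21.6 (next 9.10, lowest 6.46) and *Btg2* at 20.9 (next 13.1, lowest 8.54). In Nestin-Cre WT cortex another mouse was highest for *Btg2* at 53.7 cpm (next 24.0, lowest 9.45).

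Marker sums set out the Nestin-Cre WT cortex of the mouse whose nigra is named above (striatal 981 cpm, next 704, lowest 458), the HET nigra named above (striatal 1659, next 315, lowest 220), the striatum of 1 HOM mouse (cortical 778, next 373, lowest 197) and the striatum of that HET mouse (choroid plexus 19036, next 185, lowest 42.5). In AAV-Cre mice they set out the nigra of 1 WT mouse (striatal 993, next 431, lowest 292, and cortical 465.7, next 289, lowest 155), the cortex of 1 HET mouse (choroid plexus 1223, next 26.4, lowest 10.2) and its nigra (choroid plexus 21370, next 242, lowest 34.0).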

How the results depend on the processing

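Across all alternatives 434 counts of members kept their side, 32 were stronger and 8 weaker, and of single log2 fold changes 460 kept their direction and call, 33 gained a call and 11 reversed. DESeq2 size factors left 62 of 62 counts on their side, leaving out the mouse with 2 labels left 18 of 18 and fits of only 2 genotypes 24 of 24. A count that kept its side may still differ in number, as for AAV-Cre PFC with STR by rho (20 in place of 22). The main fit called no member in any test of genotype or of genotype effects between regions or models. Such a count was taken as kept when it stayed empty, so the tally does not measure how firm a result is. The cause of the differences below was not tested.

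The likelihood ratio test called members in Nestin-Cre PFC (HET 12 higher, HOM 15 higher and 1 lower), STR (HET 3 higher and 4 lower, HOM 12 higher) and SN (HET 4 higher, HOM 2 higher), and in AAV-Cre PFC (HET 1 higher and 1 lower, HOM 1 higher and 4 lower), STR (HOM 5 lower) and SN (HET 1 lower, HOM 1 lower), each 0 by quasi-likelihood. It called 7 lower for the Nestin-Cre HET effect in STR minus PFC and 1 lower for AAV-Cre HET. For AAV-Cre minus Nestin-Cre effects it called 8 lower in PFC HET, 1 higher and 13 lower in PFC HOM, 2 higher and 5 lower in STR HET, 11 lower in STR HOM, 8 lower in SN HET and 3 lower in SN HOM. In WT PFC between models it called 10 higher (22.4% of all genes) in place of 1. It gave a call to 33 single log2 fold changes of *Fos*, *Arc*, *Egr1*, *Npas4*, *Nr4a1* and *Btg2*, counted per gene and genotype comparison.

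DESeq2 called 2 lower in Nestin-Cre STR HET and 1 higher in the STR HET model test (each 0 by quasi-likelihood), 2 (20% of all genes) in place of 1 higher in WT PFC between models and 2 (31.0%) in place of 4 higher in AAV-Cre SN versus PFC. That last count was also 2 at an adjusted p under 0.05 (35.0%) and 2 with no filter (28.7%).

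With mouse as replicate block (paired regions) it was 7 (38.6%), and SN versus STR gave 9 (40.8%) in place of 5 higher. The block left the other 18 of its 20 counts on their side.

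At an adjusted p under 0.05 the correlations between regions gave 6 members (3.32% of all genes) in place of 11 for Nestin-Cre PFC with STR, and for AAV-Cre mice 17 (6.12%) in place of 22 for PFC with STR, 7 (5.08%) in place of 14 for STR with SN and 4 (3.26%) in place of 7 for PFC with SN.

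Without the libraries that stood apart, Nestin-Cre PFC with STR gave 2 members (1.07% of all genes) in place of 11 and AAV-Cre PFC with SN 4 (4.31%) in place of 7, on fewer mice, and WT PFC between models gave 2 higher (21.6%) in place of 1. Log2 fold changes reversed for *Arc* in Nestin-Cre SN HET (−0.053, from 0.08), for *Npas4* (0.070, from −0.06) and *Nr4a1* (0.044, from −0.04) in AAV-Cre PFC HET, for *Arc* (0.064, from −0.21), *Fos* (0.064, from −0.31) and *Egr1* (0.035, from −0.35) in AAV-Cre SN HET, and for *Arc* (0.18, from −0.0031), *Fos* (0.10, from −0.17) and *Egr1* (0.046, from −0.23) in AAV-Cre SN HOM. With no filter *Arc* in AAV-Cre SN HOM was 0.00048. Leaving out each HOM replicate of Nestin-Cre PFC took *Egr1* from −0.021 (without the highest) to 0.54 (without the lowest), against 0.30.

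Groups of 4 to 8 mice and a within-group spread of *Fos* near 1 log2 unit limit what the genotype tests can show. Members near or under 1 cpm, such as *Maff*, *Atf3* and *Egr2* in nigra, rest on few counts.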

Other observations

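Other early genes, 28 that respond to many stimuli, had 27 tested and no quasi-likelihood genotype call. In Nestin-Cre cortex 12 of 27 were positive in HET (median log2 fold change −0.01) and 12 of 27 in HOM (median −0.06). The largest HET values were *Cebpb* −0.34 (error 0.18, adjusted p 0.575), *Nfil3* 0.25 (0.20, 0.751) and *Zfp36* 0.25 (0.16, 0.668). HOM gave *Dusp2* −0.61 (0.24, 0.374), the clock gene *Per1* 0.42 (0.14, 0.288) and *Cebpb* 0.35 (0.20, 0.62). *Klf9* was called in the model test of cortex, 0.42 for HET (adjusted p 0.0843) and 0.42 for HOM (adjusted p 0.0386). Without the libraries set apart by markers the adjusted p was 0.219 and 0.0549.

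Late activity genes, 18 that follow the early wave, had 3 of 18 positive in Nestin-Cre cortex HET (median −0.08) and 4 of 18 in HOM (median −0.11). The neuropeptide genes *Penk* (−0.70, error 0.16, adjusted p 0.135, and −0.60, 0.19, 0.213) and *Tac1* (−0.59, 0.18, 0.277, and −0.37, 0.21, 0.606), which striatal neurons also express, had the largest values. *Rasgrp1* was called in the model test of cortex for HOM (0.35, 0.10, adjusted p 0.0517), and without the libraries set apart by markers (0.36, 0.10, 0.0528).

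Glucocorticoid-responsive genes, 11 in all and led by *Mt1*, had 2 of 11 positive in Nestin-Cre cortex HET (median −0.21) and 3 of 11 in HOM (median −0.12), with *Plin4* −1.42 (error 0.57, adjusted p 0.413) and −1.10 (0.66, 0.653) the largest and *Fkbp5* at −0.36 (0.11, 0.282) and −0.29 (0.13, 0.45). None was called in a genotype comparison.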
